A study of Rattus norvegicus with 12 samples.

Results

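Fibroblasts and the contractile, matrix-depositing myofibroblasts they give rise to were followed through 10 marker genes, Pdgfra, Tcf21, Dcn, Lum, Dpt, Pi16, Acta2, Tagln, Postn and Fap. The markers were chosen by name, with earlier results of these data known, and each had a single row among the 34599 genes of the count table. All 10 passed the filter on low counts that left 15101 genes for testing. RNA-seq had been made from the left ventricle of 12 male Sprague-Dawley rats, 4 in each of 3 groups, and the labels name the infarct region, 1 day after surgery, as the tissue of every sample. Which part of the ventricle was taken from Sham rats, which had no infarct, is not given in the sources used here, so each difference from Sham may include a difference in region, and these cannot be told apart. Sham rats underwent thoracotomy with the left anterior descending (LAD) coronary artery intact, and MI rats underwent ligation of that artery with no treatment. iCarP+/Light+ rats had the same ligation, then an injection of Chlorella, a unicellular green alga, into the infarcted wall, a light-guiding polymer patch (iCarP) glued over the infarct with the adhesive CCS@gel, and illumination through the patch. The treated and untreated infarcts therefore differed in more than 4 ways at once. Alga, patch, glue and light were added, and so were the injection itself and the swab pressing that followed it. The effects of these cannot be told apart. Rats with the patch kept dark were not analysed here.

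Resident cardiac fibroblasts lie between the cardiomyocytes and around vessels, and maintain the collagenous interstitium. After an infarct they leave the resting state, proliferate, and become myofibroblasts that carry smooth muscle alpha-actin stress fibres and lay down the scar, a course that takes days. Resting cells are recognised by the receptor and transcription factor of the lineage (Pdgfra, Tcf21), by small matrix proteins (Dcn, Lum, Dpt) and by Pi16. Activated cells are recognised by contractile proteins (Acta2, Tagln), by the wound-matrix protein Postn and by the protease Fap. Acta2 and Tagln are also abundant in the smooth muscle of vessel walls.

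Gene counts per rat added up to 14064414 at the lowest and 17136958 at the highest. Of these, mitochondrial genes took 22.8 to 28.9% (Sham), 8.52 to 11.5% (MI) and 7.14 to 14.2% (iCarP+/Light+). Cardiomyocyte markers, which define the labelled tissue, were present in every rat. Levels are given as CPM, gene counts relative to the library total after edgeR's TMM scaling, and levels of different genes are compared only as CPM per kb of gene length. A single rat stood apart: iCarP+/Light+ rat 5 held the lowest value of its group in 9 of the 10 markers, which summed to 681 CPM in it and to 979 to 1194 CPM in the other rats of the group, so calls that are lost without it are marked. In whole tissue, fewer fibroblasts and less RNA per fibroblast cannot be told apart.

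In Sham hearts the resting matrix genes led the markers. Dcn reached 564 ± 73.2 CPM per kb (SD, n = 4), Dpt 180.4 ± 27.4 (SD, n = 4) and Lum 150.0 ± 19.9 (SD, n = 4), and Dpt and Lum overlapped between rats. Pi16, Acta2 and Tagln followed at 61.7 ± 19.9, 59.5 ± 6.24 and 50.3 ± 4.79 CPM per kb (SD, n = 4 each), and these 3 neighbours overlapped. Postn at 37.7 ± 6.93 and Tcf21 at 33.0 ± 4.80 CPM per kb also overlapped, and Pdgfra at 23.0 ± 3.18 and Fap at 7.97 ± 3.38 came last (SD, n = 4 each).

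After infarction the order changed. In MI rats Dcn, Postn and Acta2 stood first, at 116 ± 38.3, 97.0 ± 14.5 and 81.2 ± 37.8 CPM per kb (SD, n = 4 each), with overlapping values. Tagln, Lum and Dpt followed, each overlapping its neighbour, at 45.7 ± 19.4, 34.5 ± 5.13 and 32.9 ± 4.69 CPM per kb (SD, n = 4 each). Pdgfra and Pi16 overlapped at 19.4 ± 3.55 and 17.8 ± 4.32, and Tcf21 and Fap were lowest at 9.17 ± 1.23 and 5.86 ± 1.25 CPM per kb (SD, n = 4 each). In iCarP+/Light+ rats Dcn, at 192 ± 41.6 CPM per kb (SD, n = 4), lay above Postn, at 75.2 ± 20.9 (SD, n = 4), in every rat. The order below them was Acta2, Tagln, Dpt, Lum, Pdgfra, Tcf21, Pi16 and Fap, and among these the neighbours overlapped except Pdgfra and Tcf21.

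**Figure D1:**
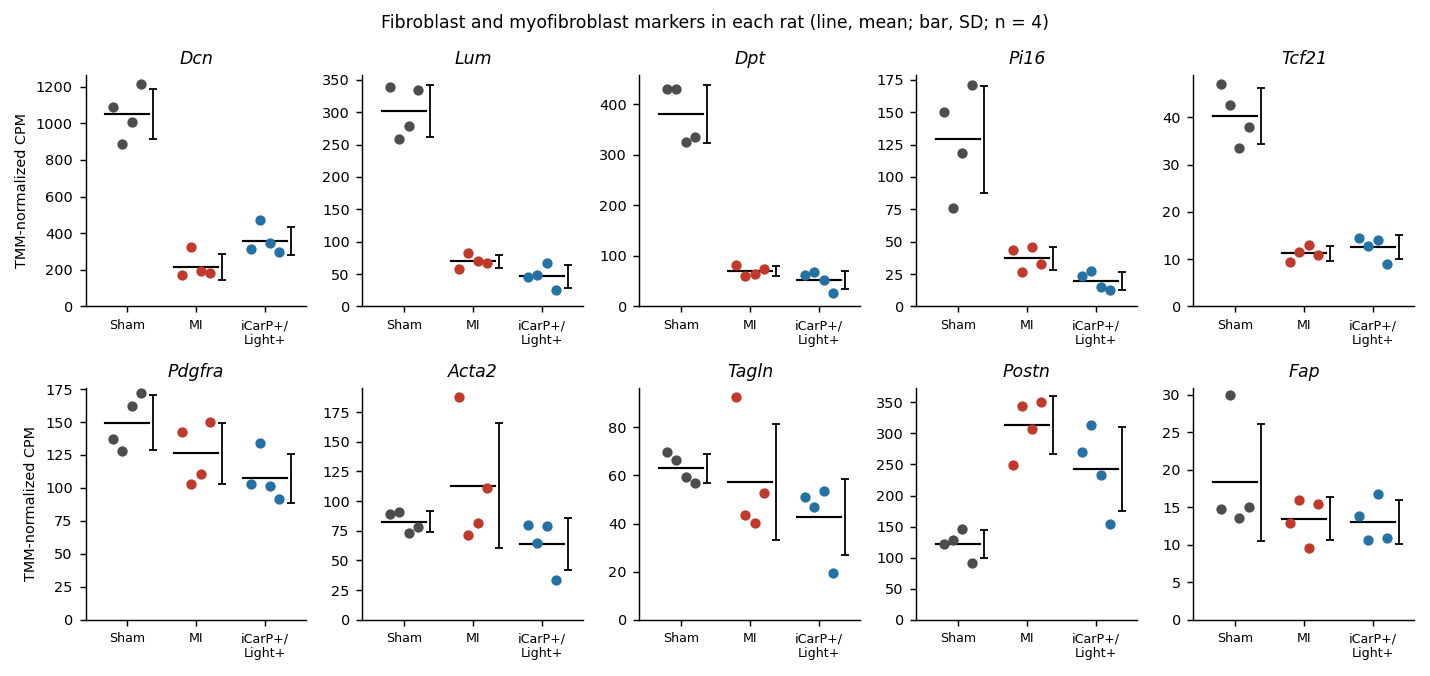
TMM-normalized CPM of the 10 markers in each rat (y axis, linear and starting at 0) by group (x axis), with 1 point per rat, a line at the mean and a bar for the SD (n = 4). Dcn, Lum, Dpt, Pi16 and Tcf21 lie higher in every Sham rat than in any infarcted rat, and Postn lies lower.

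The first comparison, MI against Sham, sets untreated infarcts beside hearts without ligation. Of the 10, 5 fell, all of them markers of resting fibroblasts (Tcf21, Dcn, Lum, Dpt and Pi16), 1 rose (Postn) and 4 did not pass the test (Pdgfra, Acta2, Tagln and Fap). Over all 15101 genes tested, 33.6% were called lower and 30.2% higher in MI, so calls in either direction were common. The median log2 fold change of the 10 markers was -1.12, against -0.06 for all genes. When libraries were scaled by total counts alone, 2 markers were called higher (Postn and Acta2) and the same 5 lower, where 51% of all genes were called higher and 18.4% lower.

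The small leucine-rich proteoglycans Dcn and Lum coat and space collagen fibrils. Dcn was measured at 1090.2, 889, 1009.6 and 1213 CPM in the 4 Sham rats and at 170.4, 322, 191 and 180.1 CPM in the 4 MI rats, a log2 fold change of -2.28 ± 0.22 (SE), or 4.87-fold lower (edgeR adjusted p = 1.72e-06). Every Sham rat lay far above the highest MI rat. Lum was at 338, 258, 279 and 334 CPM in Sham and at 58.2, 83.2, 69.5 and 67.1 CPM in MI rats, 4.35-fold lower (log2 fold change -2.12 ± 0.24 SE, edgeR adjusted p = 6.39e-06). The groups were again far apart. In the rn6 coordinates of the count table both genes lie on the plus strand of chromosome 7, Dcn at 38742051 to 38782323 and Lum at 38819771 to 38826862, 37447 bases apart.

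Dpt encodes dermatopontin, a matrix protein that binds decorin, and Pi16 marks fibroblasts of vessel sheaths in several organs. Dpt fell from 430.1, 431, 326 and 335 CPM in Sham to 81.2, 59.4, 63.4 and 73.6 CPM in MI rats, 5.48-fold (log2 fold change -2.46 ± 0.24 SE, edgeR adjusted p = 1.76e-06), with an error that takes in the fall of Dcn (-2.28). Pi16 was at 150.3, 75.7, 119 and 171 CPM in Sham and at 43.5, 26.8, 45.8 and 32.4 CPM in MI rats. The groups did not overlap, and Pi16 was 3.47-fold lower in MI (log2 fold change -1.80 ± 0.29 SE, edgeR adjusted p = 1.14e-04).

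The lineage genes went separate ways. Tcf21, a transcription factor needed for fibroblasts to form in the heart, was at 47.1, 42.6, 33.6 and 37.9 CPM in Sham and at 9.38, 11.5, 13.0 and 10.9 CPM in MI rats. It fell 3.60-fold without overlap (log2 fold change -1.85 ± 0.17 SE, edgeR adjusted p = 1.15e-06). Pdgfra, the receptor for platelet-derived growth factor that marks nearly all cardiac fibroblasts, was at 137, 128, 162 and 172 CPM in Sham and at 142, 103, 111 and 149.7 CPM in MI rats. These groups overlapped, and the log2 difference of -0.24 (95% interval -0.59 to 0.10) did not pass the test (edgeR adjusted p = 0.198); it was 0.35 when libraries were scaled by total counts alone. That scaling moved the median of all genes to 0.52 in MI against Sham, -0.25 in iCarP+/Light+ against MI and 0.33 in iCarP+/Light+ against Sham.

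Postn encodes periostin, a matricellular protein of activated fibroblasts, and was the marker that rose. It was at 121, 128, 146 and 92.0 CPM in Sham and at 249, 345, 308 and 351 CPM in MI rats, 2.57-fold higher (log2 fold change 1.36 ± 0.21 SE, edgeR adjusted p = 8.25e-05). All 4 MI rats lay above the highest Sham rat. Fap, a cell-surface protease of activated fibroblasts, was low throughout, with 14.7, 29.9, 13.6 and 15.0 CPM in Sham and 12.9, 15.9, 9.62 and 15.4 CPM in MI rats. The groups overlapped and the log2 difference was -0.44 (95% interval -1.01 to 0.12, edgeR adjusted p = 0.157), and 0.13 with total counts alone.

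Acta2, smooth muscle alpha-actin, was spread widely among MI rats, at 188, 71.6, 81.5 and 111 CPM, and lay close together in Sham, at 89.2, 90.9, 73.0 and 77.8 CPM. MI rat 1 held the highest value, while 1 of the 4 MI rats was below every Sham rat. The log2 difference was 0.45 (95% interval -0.20 to 1.10, edgeR adjusted p = 0.211), and it passed the test with total counts alone (1.03, adjusted p = 0.0119). Tagln, the actin-binding protein transgelin, was at 69.7, 66.4, 59.5 and 56.7 CPM in Sham and at 92.8, 43.4, 40.2 and 52.7 CPM in MI rats. MI rat 1 was again the highest and the other 3 MI rats lay below all Sham rats, with a log2 difference of -0.14 (95% interval -0.79 to 0.51, edgeR adjusted p = 0.704) that turned to 0.45 with total counts alone. Without MI rat 1 and iCarP+/Light+ rat 5, picked after their high and low values of both genes had been seen, the difference in Tagln was -0.36, given without a test because the choice of rats favours a lower value. Reads of Acta2 can be shared with its near-identical paralogs, of which the cardiac actin Actc1 fell from 14336 ± 843 CPM (SD, n = 4) in Sham to 1290 ± 319 (SD, n = 4) in MI rats and the skeletal actin Acta1 lay at 2923 ± 464 and 1333 ± 357 CPM (SD, n = 4 each). Tagln overlaps Sidt2 on the same strand, so its counts carry the same doubt.

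**Figure D2:**
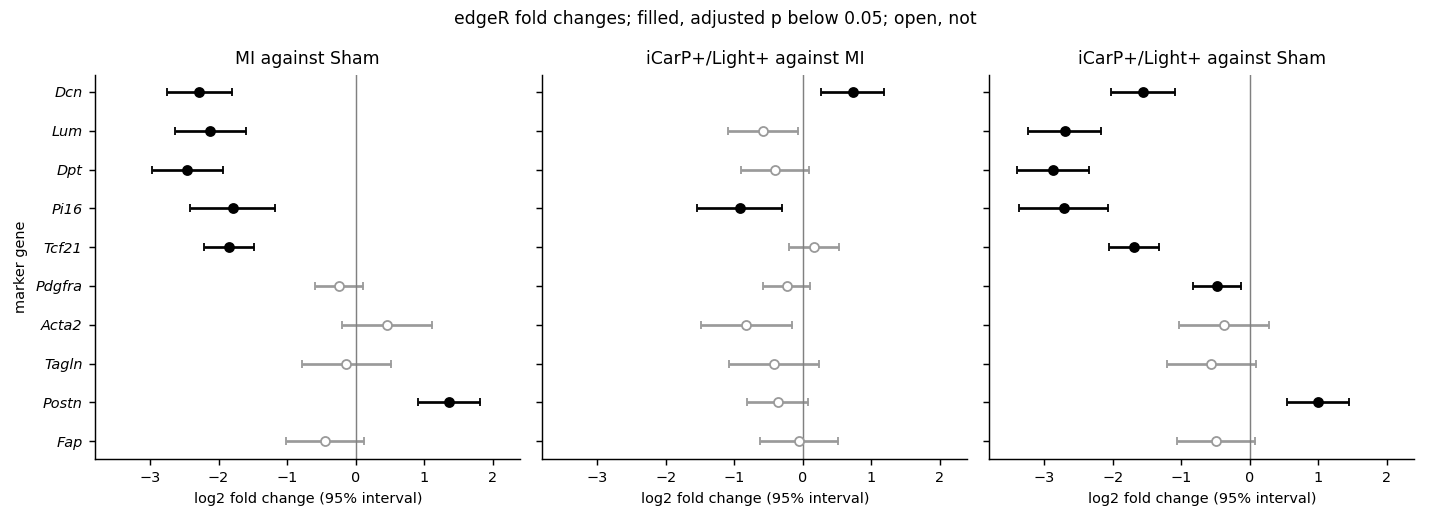
Log2 fold change of each marker (x axis) in the 3 comparisons, with a bar for the unadjusted 95% interval of the edgeR fit and a filled point where the adjusted p was below 0.05. Filled points number 6 in MI against Sham, 2 in iCarP+/Light+ against MI and 7 in iCarP+/Light+ against Sham.

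The second comparison, iCarP+/Light+ against MI, asks what the whole treatment, from injection to light, changed in infarcted hearts. Here 1 marker was called higher (Dcn), 1 lower (Pi16) and 8 did not pass the test, and the values of the 2 groups overlapped for each of the 10. Overlap was not counted over all genes tested in any comparison, so how common it is among them is not known. Of all genes tested, 11.6% were called higher and 2.01% lower. The median log2 fold change of the markers was -0.39, against 0.01 for all genes. With total counts alone, 5 markers were called lower and none higher, where 18% of all genes were called lower and 7.97% higher.

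Dcn was at 315, 469.6, 347 and 298 CPM in iCarP+/Light+ rats, so that the highest MI rat (322 CPM) lay within their range and the other 3 MI rats below it. Its level was 1.66-fold higher than in MI rats (log2 fold change 0.73 ± 0.21 SE, edgeR adjusted p = 0.0374). Pi16 was at 23.5, 27.0, 14.8 and 12.9 CPM, 1.90-fold lower than in MI (log2 fold change -0.92 ± 0.29 SE, edgeR adjusted p = 0.0490), with only the lowest MI rat inside the range of the treated rats. Both calls lay near the threshold. With single rats left out, Dcn kept its call in 4 of 12 fits (log2 fold change 0.57 to 0.98) and lost it without MI rat 1, 4 or 5, iCarP+/Light+ rat 2, 4 or 5, or Sham rat 1 or 3. Under 9 other settings it was called in 4. Pi16 kept its call in 5 of 12 (-1.12 to -0.81) and lost it without MI rat 1, 4 or 5, iCarP+/Light+ rat 4 or 5, or Sham rat 1 or 3, and under the other settings it was called in 7 of 9.

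The other matrix and lineage markers did not pass the test. Lum was at 45.9, 48.3, 66.9 and 24.5 CPM in iCarP+/Light+ rats, with a log2 difference from MI of -0.58 (95% interval -1.09 to -0.08, edgeR adjusted p = 0.133) that was called without iCarP+/Light+ rat 4 (-0.81, adjusted p = 0.0336). Dpt was at 62.0, 67.3, 52.2 and 27.4 CPM, a log2 difference of -0.41 (95% interval -0.90 to 0.08, edgeR adjusted p = 0.292). In both genes iCarP+/Light+ rat 5 held the lowest value. Tcf21 was at 14.4, 12.8, 14.0 and 8.86 CPM, a difference of 0.16 (95% interval -0.21 to 0.52, edgeR adjusted p = 0.617) that was -0.10 with total counts alone. Pdgfra was at 103, 134, 101 and 91.4 CPM, a difference of -0.23 (95% interval -0.58 to 0.11, edgeR adjusted p = 0.406).

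The contractile markers, Postn and Fap showed the same lack of calls. Acta2 was at 79.5, 64.4, 78.8 and 33.1 CPM in iCarP+/Light+ rats, a log2 difference from MI of -0.82 (95% interval -1.48 to -0.16, edgeR adjusted p = 0.101), and it was called with DESeq2 (-0.87, adjusted p = 0.0314) and with total counts alone (-1.08, adjusted p = 0.0290). Tagln was at 50.8, 46.9, 53.7 and 19.6 CPM, a difference of -0.42 (95% interval -1.07 to 0.23, edgeR adjusted p = 0.433). Without MI rat 1 and iCarP+/Light+ rat 5 these differences were -0.33 in Acta2 and 0.070 in Tagln. Postn was at 271, 313, 233 and 154 CPM, a difference of -0.37 (95% interval -0.81 to 0.08, edgeR adjusted p = 0.294), and Fap at 13.8, 10.6, 16.7 and 10.8 CPM, a difference of -0.05 (95% interval -0.62 to 0.52, edgeR adjusted p = 0.933). With total counts alone, Pdgfra (-0.51, adjusted p = 0.0382), Lum (-0.83, adjusted p = 0.0273) and Postn (-0.63, adjusted p = 0.0462) were also called and Dcn was not (0.46, adjusted p = 0.115).

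The third comparison, iCarP+/Light+ against Sham, sets the treated infarcts beside hearts without ligation. Its rats also enter the first 2 comparisons, which in turn share the MI rats, so the 3 are not independent. Of the markers, 6 were called lower, 1 higher and 3 neither, where 33% of all genes tested were called lower and 33.5% higher. The median of the markers was -1.06, against 0.02 for all genes.

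Dpt was 7.28-fold lower in iCarP+/Light+ rats than in Sham (log2 fold change -2.86 ± 0.24 SE, edgeR adjusted p = 4.34e-07), Pi16 6.58-fold (-2.72 ± 0.30 SE, adjusted p = 4.01e-06) and Lum 6.51-fold (-2.70 ± 0.25 SE, adjusted p = 8.14e-07). Tcf21 was 3.22-fold lower (-1.69 ± 0.17 SE, edgeR adjusted p = 1.86e-06) and Dcn 2.94-fold (-1.56 ± 0.22 SE, adjusted p = 3.15e-05). None of these 5 overlapped between the groups, though the share of all genes without overlap was not counted. Postn was 1.99-fold higher, also without overlap (1.00 ± 0.21 SE, edgeR adjusted p = 8.78e-04).

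Pdgfra was 1.39-fold lower with overlapping values (-0.48 ± 0.16 SE, edgeR adjusted p = 0.0178). That call was lost without iCarP+/Light+ rat 5 (-0.38, adjusted p = 0.0641) or Sham rat 5 (-0.41, adjusted p = 0.0565), with total counts alone (-0.16, adjusted p = 0.394), and with the replicate number as a block (-0.46, adjusted p = 0.0702). Tagln did not overlap between the groups and yet did not pass the test (-0.56, 95% interval -1.21 to 0.09, edgeR adjusted p = 0.119). Acta2 (-0.37, 95% interval -1.03 to 0.29, edgeR adjusted p = 0.298) and Fap (-0.50, 95% interval -1.07 to 0.08, adjusted p = 0.115) overlapped and did not pass the test. The falls of Tcf21, Dcn, Lum, Dpt and Pi16 and the rise of Postn, in MI and in iCarP+/Light+ rats against Sham, passed the test in each of 12 fits with 1 rat left out and under each of 9 other settings.

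Acta2 and Tagln were set against Myh11, the smooth muscle myosin heavy chain, within each library, where scaling cancels. The gene pairs tested as ratios were chosen with earlier results of these data known, so their p-values are not independent evidence. Myh11 fell from 99.2 ± 9.74 CPM (SD, n = 4) in Sham to 28.3 ± 18.9 (SD, n = 4) in MI rats (log2 fold change -1.81 ± 0.37 SE, edgeR adjusted p = 7.85e-04), and it was at 20.9 ± 6.30 CPM (SD, n = 4) in iCarP+/Light+ rats. Per kb, Acta2 exceeded Myh11 by 4.17, 5.10, 3.52 and 3.45 times in the Sham rats, by 16.3, 20.5, 26.9 and 20.4 times in the MI rats, and by 16.5, 13.2, 14.8 and 13.7 times in the iCarP+/Light+ rats. Each infarcted rat lay above the highest Sham rat. The ratio was 5.15-fold higher in MI than in Sham (two-sided exact permutation p = 0.0286, the smallest that 4 against 4 rats allow, 0.0490 after Benjamini-Hochberg adjustment over 12 comparisons) and 3.62-fold higher in iCarP+/Light+ than in Sham rats (exact permutation p = 0.0286, adjusted 0.0490). Between iCarP+/Light+ and MI rats it overlapped (log2 difference -0.51, exact permutation p = 0.0571, adjusted 0.0857), and without MI rat 1 that difference passed the threshold (-0.63, adjusted 0.0429).

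The ratio of Tagln to Myh11 lay between 2.79 and 4.14 in the Sham rats, between 8.91 and 14.7 in the MI rats and between 8.97 and 11.7 in the iCarP+/Light+ rats. It was 3.47-fold higher in MI and 3.12-fold higher in iCarP+/Light+ than in Sham rats, without overlap (exact permutation p = 0.0286, adjusted 0.0490 each), and the treated and untreated infarcts overlapped (log2 difference -0.15, exact permutation p = 0.514, adjusted 0.617). So the levels of Acta2 and Tagln relative to Myh11 were higher after ligation, while the differences in their CPM did not pass the test. These folds depend on the gene set beside them, because genes on the smooth muscle list moved both ways. In MI against Sham, the log2 fold change of Myh11 lay below those of 13 of the other 18 genes tested on the smooth muscle list. That of Acta2 lay below 5 of the 19 and above 14, and that of Tagln below 7 and above 12. The 5 genes of the list that rose were Cnn1 (1.68), Flna (1.17), Csrp1 (0.86), Tpm2 (0.80) and Mrtfa (0.38), of which Csrp1, Tpm2 and Mrtfa were named after their values had been seen. Of all genes 30.2% were called higher in MI against Sham, so 5 of the 19 is no more than that share.

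The ratio of Postn, of the wound matrix, to Dcn, of the resting matrix, moved further. Postn per kb was 0.0643, 0.0829, 0.0833 and 0.0437 of Dcn in the 4 Sham rats, 0.842, 0.617, 0.930 and 1.12 in the MI rats and 0.496, 0.385, 0.387 and 0.298 in the iCarP+/Light+ rats. The 3 groups did not overlap. The ratio was 12.9-fold higher in MI and 5.80-fold higher in iCarP+/Light+ than in Sham rats, and 2.23-fold lower in iCarP+/Light+ than in MI rats (exact permutation p = 0.0286, adjusted 0.0490 for each of the 3). This pair too was chosen with earlier results of these data known, so these p-values are not independent evidence that the groups separate. The log2 differences in iCarP+/Light+ against MI were -0.37 for Postn, 0.73 for Dcn, -0.58 for Lum, -0.41 for Dpt and -0.92 for Pi16, so the lower ratio does not extend to Lum, Dpt or Pi16. How much of it Postn and Dcn each supply depends on the scaling, since with total counts alone they differed by -0.63 and 0.46. Fap to Pdgfra overlapped in every comparison, with log2 differences of -0.14 for MI against Sham, 0.18 for iCarP+/Light+ against MI and 0.04 for iCarP+/Light+ against Sham (exact permutation adjusted p = 0.810, 0.617 and 0.914). With 3 rats in the iCarP+/Light+ group after rat 5 was left out, the 7 ratios called above no longer passed. Their exact permutation adjusted p went to 0.0571, or 0.0980 for Postn to Dcn in iCarP+/Light+ against MI (log2 difference -1.03). The MI against Sham ratios do not contain that rat. Their log2 differences stayed at 2.37 (Acta2 to Myh11), 1.80 (Tagln to Myh11) and 3.69 (Postn to Dcn). Their adjusted p moved only because the adjustment runs over all comparisons together. The 0.0490 likewise needed all 7 ratios to reach the smallest p that 4 against 4 rats allow.

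**Figure D3:**
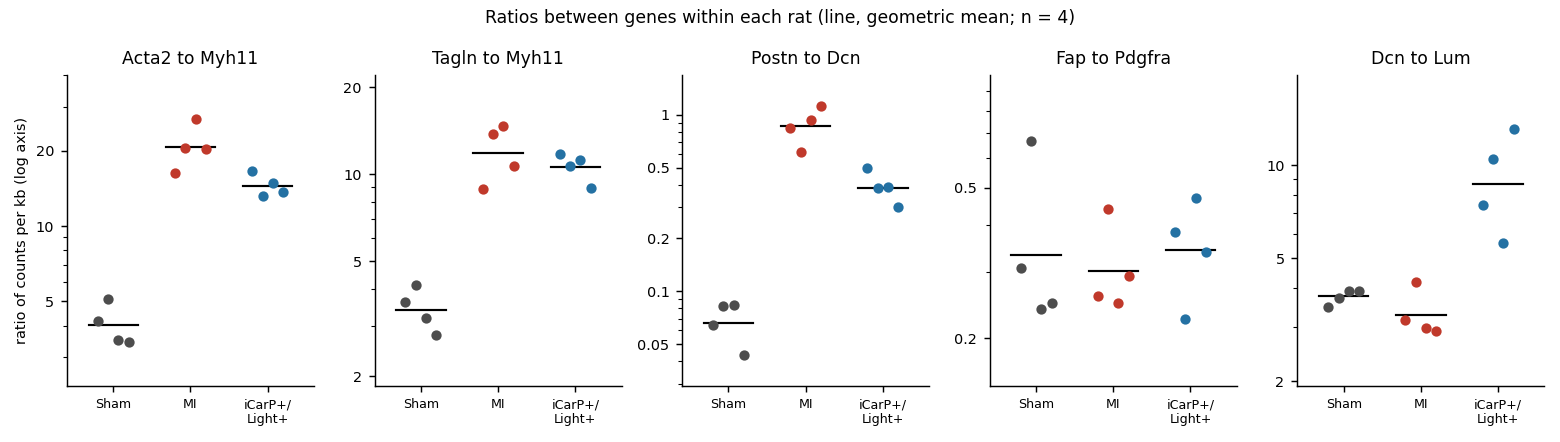
Ratios of counts per kb within each rat (y axis, log scale) for Acta2 to Myh11, Tagln to Myh11, Postn to Dcn, Fap to Pdgfra and Dcn to Lum by group (x axis), with 1 point per rat and a line at the geometric mean (n = 4). Postn to Dcn separates the 3 groups, from 0.0437 to 0.0833 in Sham, 0.298 to 0.496 in iCarP+/Light+ and 0.617 to 1.12 in MI rats.

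Dcn stood higher relative to other resting matrix markers in iCarP+/Light+ rats than in Sham or MI rats. Lum is its neighbour on the chromosome and, like it, a proteoglycan of collagen fibrils. Per kb, Dcn was 3.49, 3.73, 3.92 and 3.93 times Lum in Sham, 3.17, 4.19, 2.97 and 2.90 times in MI and 7.42, 10.5, 5.61 and 13.1 times in iCarP+/Light+ rats. The treated rats lay above all others. Pi16 per kb was 0.0382 to 0.0668 of Dcn in the treated rats, 0.0759 to 0.126 in Sham and 0.0743 to 0.228 in MI rats, again without overlap. Dpt was 0.0811 to 0.174 of Dcn in the treated rats, 0.244 to 0.428 in Sham and 0.163 to 0.421 in MI rats, where the lowest MI rat lay within the treated range. These 3 pairs were picked after their values had been seen and are given without a test.

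Promoters are shown for 3 markers with different courses after ligation: Acta2, whose product defines the myofibroblast, Postn, which rose, and Dpt, which fell. Each line holds the 250 bases before the RefSeq start on the gene's strand, 5′ to 3′, in the GRCr8 assembly. They lie at chr1:241172504-241172753 (minus strand) for Acta2, chr2:140677811-140678060 (plus strand) for Postn and chr13:79656091-79656340 (plus strand) for Dpt. Capitals mark the TATAA motif and, in Acta2, 2 CArG-like boxes.
Acta2: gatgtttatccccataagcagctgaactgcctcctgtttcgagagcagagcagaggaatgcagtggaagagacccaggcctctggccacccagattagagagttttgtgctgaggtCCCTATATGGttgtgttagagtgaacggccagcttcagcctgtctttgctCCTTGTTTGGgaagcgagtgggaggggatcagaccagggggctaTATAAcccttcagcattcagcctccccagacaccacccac
Postn: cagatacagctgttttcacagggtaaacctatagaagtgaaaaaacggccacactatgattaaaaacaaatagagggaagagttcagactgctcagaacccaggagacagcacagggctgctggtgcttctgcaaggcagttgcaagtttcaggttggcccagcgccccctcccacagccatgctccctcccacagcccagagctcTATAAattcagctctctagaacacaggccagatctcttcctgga
Dpt: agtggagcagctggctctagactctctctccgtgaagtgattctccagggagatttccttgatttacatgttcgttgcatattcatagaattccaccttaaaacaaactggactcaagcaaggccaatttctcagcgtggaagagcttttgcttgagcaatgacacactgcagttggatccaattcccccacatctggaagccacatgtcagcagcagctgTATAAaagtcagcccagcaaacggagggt

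A CArG box is the element that serum response factor binds at many contractile genes. It was searched on both strands as CC, 6 bases with at most 1 G or C among them, and GG, and was found in 1 of the 8 markers with a RefSeq promoter entry, Acta2, as CCCTATATGG and CCTTGTTTGG at 134 and 84 bases before the start. Of all 33469 RefSeq promoters, 8.08% held it in the same window. TATAA was found in 4 of 8 (Pdgfra, Dpt, Acta2 and Postn) against 24.0% of all promoters, and CATTCC, the MCAT element, in 1 of 8 (Acta2) against 12.1%. The AP-1 motif TGANTCA was found in 1 of 8 (Pdgfra) against 6.34%, and the E-box CANNTG, which overlapped none of the capitals shown, in 7 of 8 against 65.5%. These are matches of letters and do not show binding.

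Further genes linked to fibroblasts and to other cell types were read in lists that did not include the 10 markers. Which cells their RNA came from in whole tissue was not tested, so a list's median does not measure 1 cell type alone. The numbers of listed genes called are to be read against the share of all genes called. That share was 30.2% higher and 33.6% lower in MI against Sham and 11.6% higher and 2.01% lower in iCarP+/Light+ against MI. For counts with total counts alone these shares were 51% and 18.4%, and 7.97% and 18%. Of 25 resting fibroblast genes tested, 20 fell in MI against Sham, none rose (also none by unadjusted p in edgeR, and 1 by DESeq2) and 5 did not pass, with a median log2 fold change of -1.56, and 15 fell and 3 rose with total counts alone. Scara5, a ferritin receptor of adventitial fibroblasts, fell from 55.6 ± 11.7 to 1.80 ± 0.93 CPM (SD, n = 4 each; log2 fold change -4.94 ± 0.55 SE, edgeR adjusted p = 5.51e-06), and Clec3b, the plasminogen-binding protein tetranectin, from 73.2 ± 11.4 to 2.54 ± 0.78 CPM (SD, n = 4 each; -4.85 ± 0.42 SE, adjusted p = 7.84e-07). In iCarP+/Light+ against MI 1 rose, 1 fell and 23 did not pass, with a median of -0.02. With total counts alone 1 rose and 3 fell, and 4 were called without iCarP+/Light+ rat 5. Mgp, matrix Gla protein, an inhibitor of calcification, rose from 252 ± 66.6 to 501 ± 64.2 CPM (SD, n = 4 each; 0.99 ± 0.19 SE, edgeR adjusted p = 0.00315), and Pcolce, an enhancer of procollagen processing, fell from 65.4 ± 5.78 to 45.5 ± 10.7 CPM (SD, n = 4 each; -0.52 ± 0.15 SE, adjusted p = 0.0396). Pcolce kept its call in 4 of 12 fits with single rats left out and lost it without any of the 4 MI rats, iCarP+/Light+ rat 2, or Sham rat 1, 2 or 5 (edgeR adjusted p = 0.0520 to 0.0889).

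Of 30 activated fibroblast genes, 16 rose, 7 fell and 7 did not pass in MI against Sham, with a median of 1.42, and 18 rose and 4 fell with total counts alone. Of all genes, 30.2% were called higher and 33.6% lower there, or 51% and 18.4% with total counts alone. Adam12, a metalloprotease, rose from 0.65 ± 0.28 to 28.8 ± 17.3 CPM (SD, n = 4 each; 5.45 ± 0.52 SE, edgeR adjusted p = 1.45e-06). Ccn4, a matricellular protein, rose as well (edgeR adjusted p = 1.43e-05), from 1, 1, 0 and 4 counts in the Sham rats to 54, 59, 24 and 72 counts in the MI rats, and no fold is given because 3 of the Sham rats held fewer than 3 counts. Genes of this list that fell included Cilp, a matrix protein of the chronic scar, at -3.01 ± 0.42 SE (edgeR adjusted p = 3.66e-05), and the collagen-binding integrin Itga11 at -1.72 ± 0.40 SE (adjusted p = 0.00190). Members of the list thus moved in opposite directions. In iCarP+/Light+ against MI 4 of the 30 rose, a share near the 11.6% of all genes. Another 3 fell, where 2.01% of all genes did, and 23 did not pass, with a median of -0.07. With total counts alone 2 rose and 7 fell, beside 7.97% and 18% of all genes. P4ha1, a collagen prolyl hydroxylase, rose from 133 ± 40.5 to 396 ± 123 CPM (SD, n = 4 each; 1.57 ± 0.25 SE, edgeR adjusted p = 8.72e-04), and Sfrp2, a secreted Wnt modulator, rose by 1.40 ± 0.41 SE (adjusted p = 0.0372; 1.15, adjusted p = 0.0533, with total counts alone). Sfrp2 lost its call without MI rat 1 or 5, iCarP+/Light+ rat 1 or 2, or Sham rat 1 (edgeR adjusted p = 0.0517 to 0.117). Thbs4, a thrombospondin, fell by 1.62 (SE 0.43, edgeR adjusted p = 0.0240) and Ccn2, connective tissue growth factor, from 487 ± 36.5 to 249 ± 72.5 CPM (SD, n = 4 each; -0.97 ± 0.24 SE, adjusted p = 0.0150). The call of Thbs4 was lost without MI rat 1 (-0.98, edgeR adjusted p = 0.0762) or iCarP+/Light+ rat 2 (-1.38, adjusted p = 0.0668).

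Among the 19 smooth muscle genes tested, 5 rose, 11 fell and 3 did not pass in MI against Sham, with a median of -1.02, and with total counts alone 7 rose and 7 fell. Of all genes, 30.2% were called higher and 33.6% lower in MI against Sham. In that comparison calponin, Cnn1 (1.68 ± 0.46 SE, edgeR adjusted p = 0.00602), and the actin cross-linker Flna (1.17 ± 0.19 SE, adjusted p = 1.24e-04) were the highest. Pln, which cardiomyocytes also express, was the lowest (-4.07 ± 0.55 SE, edgeR adjusted p = 2.79e-05). In iCarP+/Light+ against MI none of the 19 was called by edgeR, DESeq2 or limma-voom, 1 had an unadjusted p below the threshold by edgeR, and 2 fell with total counts alone.

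**Figure D4:**
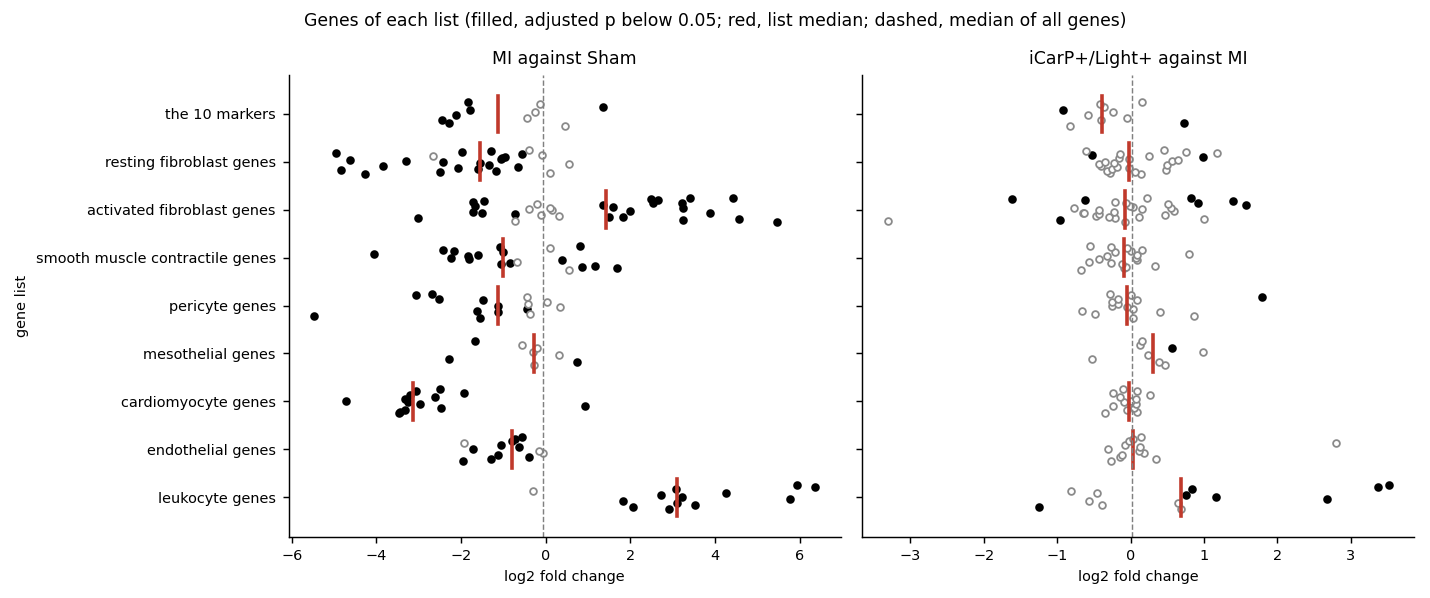
Log2 fold change of every gene tested (x axis) in each list (y axis), for MI against Sham and iCarP+/Light+ against MI, with 1 point per gene, filled where the edgeR adjusted p was below 0.05, a red line at the list's median and a dashed line at the median of all genes. Resting fibroblast genes lie around a median of -1.56 and activated fibroblast genes around 1.42 in MI against Sham, and both lie near 0 in iCarP+/Light+ against MI.

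Markers of other cell types moved in the same comparisons, and their part in the values of the fibroblast markers was not tested. Beside their calls, 30.2% of all genes were higher and 33.6% lower in MI against Sham. In iCarP+/Light+ against MI these shares were 11.6% and 2.01%. The 14 cardiomyocyte markers summed to 67219 to 72351 CPM (Sham rats), 5248 to 10263 (MI rats) and 4539 to 11491 (iCarP+/Light+ rats), and 13 of 14 fell and 1 rose in MI against Sham. The alpha-myosin heavy chain Myh6 fell by 4.73 on the log2 scale (SE 0.34, edgeR adjusted p = 2.09e-07), and the muscle LIM protein Csrp3 rose by 0.92 (SE 0.24, adjusted p = 0.00461). The 14 leukocyte markers summed to 471 to 724 CPM (Sham rats), 4964 to 8498 (MI rats) and 7313 to 13083 (iCarP+/Light+ rats). Of the 13 tested, 12 rose in MI against Sham, among them the neutrophil calprotectin subunit S100a8 (6.37 ± 0.49 SE, edgeR adjusted p = 2.99e-07). In iCarP+/Light+ against MI 6 rose and 1 fell, or 5 and 5 with total counts alone, with S100a9 highest (3.53 ± 0.39 SE, edgeR adjusted p = 6.20e-05) and the T cell receptor subunit Cd3e lowest (-1.25 ± 0.38 SE, adjusted p = 0.0426). Cd3e was called in 3 of 12 fits with single rats left out and not without MI rat 3, 4 or 5, iCarP+/Light+ rat 2, 4 or 5, or Sham rat 1, 2 or 3 (edgeR adjusted p = 0.0504 to 0.133).

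Vessel-wall and surface cells were followed as well, beside the same shares of all genes called. Pericyte markers summed to 1561 to 1733 CPM (Sham rats), 697 to 1044 (MI rats) and 963 to 1079 (iCarP+/Light+ rats). Of the 15, 10 fell in MI against Sham, or 9 with 2 higher with total counts alone, with Colec11 lowest (-5.48 ± 0.59 SE, edgeR adjusted p = 4.20e-06, from 200 to 276 counts in the Sham rats to 2 to 15 in the MI rats), and 1, Steap4, rose in iCarP+/Light+ against MI (1.79 ± 0.26 SE, adjusted p = 4.52e-04), where total counts alone gave 1 higher and 3 lower. Endothelial markers summed to 3311 to 3970 CPM (Sham rats), 1722 to 2248 (MI rats) and 1924 to 2357 (iCarP+/Light+ rats), and 10 of 13 fell in MI against Sham, or 5 with 2 higher with total counts alone, Aplnr most (-1.96 ± 0.19 SE, edgeR adjusted p = 1.60e-06). Mesothelial markers summed to 211 to 223 CPM (Sham rats), 187 to 223 (MI rats) and 252 to 329 (iCarP+/Light+ rats). Of the 8 tested, Ezr rose (0.75 ± 0.15 SE, edgeR adjusted p = 6.26e-04) and 2 fell in MI against Sham (2 and 2 with total counts alone), Gpm6a most (-2.29 ± 0.41 SE, adjusted p = 3.01e-04), and Sulf1 rose in iCarP+/Light+ against MI (0.56 ± 0.14 SE, adjusted p = 0.0187; 0.30, adjusted p = 0.144, with total counts alone). Sulf1 lost its call without iCarP+/Light+ rat 2, 4 or 5 (edgeR adjusted p = 0.0521 to 0.0628). Cldn5 of the endothelial list and Vit of the resting fibroblast list were at 0 in all 12 rats, Bnc1 of the mesothelial list in the 8 infarcted rats, and the B cell marker matched as Cd79al in the iCarP+/Light+ rats.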

How the data were processed

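RNA-seq counts of left ventricle from 12 rats, 4 per group, were analysed. The authors deposited raw counts of reads per gene, made per the submitters' processing notes with HISAT2 and featureCounts on rn6; versions, annotation release and strand setting are not given in the sources used here. Groups and replicate numbers came from the sample titles.

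The counts went into edgeR 4.0.16 under R 4.3.3. Of all genes 15101 passed filterByExpr (minimum count 10), TMM factors set the library sizes, and the 12 rats entered a single quasi-likelihood fit of group means. p-values were Benjamini-Hochberg adjusted over all genes tested, with a threshold of 0.05. Intervals of 95% are unadjusted. Ratios of 4 gene pairs within each library were taken after adding 1 count and dividing by gene length, and compared by exact permutation of the 70 arrangements of 4 against 4 rats, adjusted over 12. Promoter windows came from RefSeq (GRCr8), and the markers with an entry were searched for 5 motifs.

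The markers, lists and tests were chosen with earlier results of these data known. Named list genes were the 2 highest and 2 lowest called log2 fold changes in the fibroblast and smooth muscle lists, and the highest and lowest in the others, in MI against Sham and iCarP+/Light+ against MI; 1 gene so chosen is not reported here. Of the listed genes, 8 had no row, and Cd79a was matched through another symbol, Cd79al. Lists were described by counts and medians, with no set test.

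A number shared between groups names different animals, and such pairs deviated with correlations of -0.15 to 0.07 (9 pairs), so no replicate block entered the model. The 18 pairs of rats within a group differed by more than counting noise (chi-square per gene 14.8 to 119, where noise gives 1). The labels name no batch. A library's smallest measurable share was taken as 3 counts, covering counting error only.

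Alternatives were DESeq2's size factors, total counts alone, DESeq2 1.42.0, limma-voom (limma 3.58.1), no filter, at least 10 counts in every rat, no mitochondrial genes, only the groups compared, a replicate block, each rat left out, and, added after the data were seen, 2 rats left out together; for ratios, 0.5 counts added. The fits were tested on simulated data. Plots were drawn with matplotlib 3.10.9.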

Additional observations from a re-analysis of the deposited data

Results flagged for a closer look

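In each group of 4 rats, the gap between the highest or lowest rat and its nearest neighbour was set against the group's whole range on the log2 CPM scale, for 10 markers in 3 groups, 30 groups in all, of which chance passes about 1.5. Fap in Sham rat 2 passed (0.878 of the range), with 29.9 CPM where the other Sham rats held 13.6 to 15.0. Tagln in iCarP+/Light+ rat 5 passed (0.865), with 19.6 CPM where the others held 46.9 to 53.7. That rat held the lowest value of its group in 9 of the 10 markers, Fap being the exception, and without it and MI rat 1 the log2 difference of Tagln between iCarP+/Light+ and MI was 0.070.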

How the results depend on the processing

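The falls of Tcf21, Dcn, Lum, Dpt and Pi16 and the rise of Postn against Sham kept direction and call under each setting tried, in MI and in iCarP+/Light+ rats. Calls between iCarP+/Light+ and MI rats did not, and the causes were not tested. There, 2 markers were called in the fit reported, 3 with DESeq2 (Dcn, Pi16 and Acta2), 1 with limma-voom (Dcn), and 1, Pi16, with DESeq2's size factors, at least 10 counts in every rat or only the 2 groups compared. Total counts alone gave 5 without Dcn, and there were 0 with MI rat 1 and iCarP+/Light+ rat 5 both left out, and 0 to 2 with single rats left out. Calls over all genes moved as well, from 1747 higher and 304 lower in the fit reported. They were 1849 and 763 with DESeq2, 1804 and 350 with limma-voom, and 1565 and 457 with DESeq2's size factors. At least 10 counts in every rat gave 1248 and 475, only the 2 groups compared 1319 and 232, and the 2 rats left out 859 and 123.

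Total counts alone turned the uncalled log2 differences of Pdgfra (0.35), Tagln (0.45) and Fap (0.13) in MI against Sham, and of Tcf21 (-0.10) in iCarP+/Light+ against MI. Tagln turned to 0.070 in iCarP+/Light+ against MI with the 2 rats left out, and to 0.0042 in MI against Sham without MI rat 4 (range over single rats -0.47 to 0.0042). Fap turned positive in iCarP+/Light+ against MI without MI rat 3 (0.037), MI rat 5 or iCarP+/Light+ rat 2 (range -0.20 to 0.037). The ratio of Fap to Pdgfra, never called, turned to -0.01, -0.11, -0.11 and -0.09 in iCarP+/Light+ against Sham without iCarP+/Light+ rat 1 or 4 or Sham rat 3 or 5 (range -0.11 to 0.38), and to 0.20 in MI against Sham without Sham rat 2 (range -0.32 to 0.20).

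Without single rats the log2 ratio of Acta2 to Myh11 ran from 2.24 to 2.48 in MI against Sham, -0.63 to -0.38 in iCarP+/Light+ against MI and 1.78 to 1.97 in iCarP+/Light+ against Sham. Tagln to Myh11 ran from 1.69 to 1.93 and from 1.55 to 1.74 against Sham, and Postn to Dcn from 3.49 to 3.85, -1.31 to -1.03 and 2.34 to 2.66. Adding 0.5 counts in place of 1 changed no call among the 12.

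Over all genes, total counts alone called 7707 higher and 2776 lower in MI against Sham, where TMM scaling gave 4553 and 5080, and 1204 higher and 2722 lower in iCarP+/Light+ against MI, where TMM scaling gave 1747 and 304. It moved the list medians in MI against Sham to -0.98 (resting fibroblast), 2.00 (activated fibroblast), -0.45 (smooth muscle), -0.55 (pericyte), 0.26 (mesothelial, from -0.28), -2.55 (cardiomyocyte), -0.21 (endothelial) and 3.68 (leukocyte). In iCarP+/Light+ against MI it moved the medians of activated fibroblast, smooth muscle, pericyte and endothelial genes to -0.35, -0.35, -0.32 and -0.24, and their calls to 4 for resting fibroblast, 2 for smooth muscle, 4 for pericyte and 0 for mesothelial genes.

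In iCarP+/Light+ against MI, DESeq2 called 4 resting fibroblast and 2 pericyte genes. With only the 2 groups compared, 1 resting fibroblast, 4 activated fibroblast and 0 mesothelial genes were called, and the activated median in MI against Sham was 1.56. With the 2 rats left out that median was 1.60, and 0 mesothelial and 4 leukocyte genes were called in iCarP+/Light+ against MI. With single rats left out the calls there ran from 1 to 4 (resting), 3 to 9 (activated), 1 to 2 (pericyte) and 0 to 2 (mesothelial), and in MI against Sham the median ran from 1.34 to 1.53 (activated) and -0.89 to -0.14 (mesothelial).

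The replicate numbers do not pair animals. With the number as a replicate block, 0 markers were called in iCarP+/Light+ against MI (Dcn 0.81, adjusted p = 0.0785; Pi16 -0.98, adjusted p = 0.136), the call of Pdgfra in iCarP+/Light+ against Sham was lost, and in iCarP+/Light+ against MI there were 1 resting fibroblast, 3 activated fibroblast, 1 smooth muscle, 2 pericyte and 4 leukocyte genes called; over all genes there 1157 were higher and 141 lower. No marker was too shallow to test: the lowest count was 126, in Tcf21.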
